A study of Ambystoma mexicanum with 6 samples.

Results

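The F-box, cullin and TRIM ubiquitin ligase genes were followed in AL1, an axolotl fibroblast line (the axolotl is a salamander that regrows limbs). The set holds every gene of the deposited table whose symbol is an FBXO, FBXL, FBXW, SKP, CUL, RBX or TRIM symbol with a number, apart from genes not reported here. This gave 86 symbols carried by 110 gene models, of 99126 gene models in all. There were 49 F-box symbols (SKP2 included), 31 TRIM symbols and 6 core symbols, which are CUL2, CUL3, CUL4A, CUL4B, CUL5 and RBX1. CUL1, SKP1, FBXO5, CUL7 and CUL9 are not analysed here. Where several models carried a symbol, the one with the highest mean count over the 6 libraries stood for it. Of the 86 members, 67 had enough counts to be tested, 3 (FBXO43, TRIM29 and TRIM46) had 0 counts in every library, and 17 had at most 10 counts in every library.

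The treated group comprised 3 libraries of cells given 10 µM etoposide with 1 µM nutlin-3a for 24 h and then 1 µM nutlin-3a alone for 11 days, a 12-day induction of senescence. The DMSO group comprised 3 libraries of cells given the solvent and passaged over the same time. Etoposide traps topoisomerase II on cut DNA, and nutlin-3a keeps MDM2, itself a ubiquitin ligase, off p53. Both groups are of 1 established line with no engineered allele named in the labels, and both were harvested at day 14, so an effect of the drugs and one of passaging cannot be told apart. Nothing in the labels ties the libraries to separate cultures, and p-values therefore reflect only how far libraries of 1 group differ, possibly for technical reasons.

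Ubiquitin ligases choose the proteins that receive ubiquitin, a tag that in chains often sends them to the proteasome. In cullin-RING ligases a cullin acts as the scaffold, RBX1 at one end recruits the ubiquitin-conjugating enzyme, and an exchangeable receptor at the other end binds the substrate. F-box proteins are the receptors of the CUL1 ligases (SCF), to which they bind through SKP1. CUL2 and CUL5 use elongin-bound receptors, CUL3 uses BTB proteins and CUL4 uses DDB1 with DCAF proteins. TRIM proteins carry the RING and the substrate-binding part in 1 chain and need no cullin. SCF receptors are known for timing the cell cycle, and several F-box and TRIM genes are known from wasting muscle. Roles named here are those described in human and mouse unless another species is given.

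The count table held 33083856 to 46686876 counts per treated library and 28604727 to 33633869 per DMSO library. A count of 0 in a library allows up to 3 counts. As scaled in this text, that is 0.0671 CPM (treated replicate 1) to 0.116 CPM (treated replicate 2), the usual unit of counts relative to library size. This covers counting error only, since the method carries no molecular identifiers. The libraries differed within a group by more than sampling noise. Of 18 fibroblast markers listed, 16 were found and 11 were tested, with a summed level of 7657 to 9371 CPM in treated libraries and 7083 to 7396 CPM in DMSO libraries, most of it VIM. FBN1 had 0 counts and COL5A1, DCN and THY1 at most 3 counts in any library, so VIM, COL1A1, COL1A2, COL3A1 and others carried the list. Of the 11 tested, 2 rose and 2 fell. Calling AL1 a fibroblast line does not rest on these values. Epidermis markers summed to 933 to 1147 CPM in treated and 1294 to 1417 CPM in DMSO libraries, with CLDN4 and EPCAM at 0 counts. Of the 2 tested epidermis markers, 1 rose (log2 fold change 1.87) and 1 fell (-0.40). Macrophage and leukocyte markers summed to 382 to 466 CPM in treated and 162 to 185 CPM in DMSO libraries, with 1 tested gene (log2 fold change 1.27). That gene, with a mean of 298 CPM over the 6 libraries, made up nearly all of the sum. PTPRC and SPI1 had 0 counts, and CORO1A, CSF1R and MPEG1 had at most 3 counts in any library. Endothelium markers summed to 1.09 to 2.06 CPM in treated and 0.476 to 0.503 CPM in DMSO libraries. Of the 2 tested endothelium markers, 1 rose (log2 fold change 2.87). Schwann and neural markers summed to at most 11.0 CPM in any library. Fewer cells expressing a gene and less RNA per cell cannot be told apart in such bulk libraries.

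Of the 67 tested members, 19 rose and 10 fell in treated cells at an adjusted p below 0.05 (edgeR's quasi-likelihood test with Benjamini-Hochberg adjustment over 17424 gene models). This is 43.3% of the members, against 52.3% of all gene models tested. Members higher in treated cells made up 28.4%, against 25.5% of all models, and members lower made up 14.9%, against 26.8%. The groups did not overlap for 37 members (55.2%), against 60.2% of all models, and 13 members (19.4%) were called with a change of at least 2-fold, against 24.6%. These shares lie near or below those of all models. The calls include TRIM36 and TRIM63, each of which passed the count cutoff through the group where it was higher. The median log2 fold change was 0.07 over the members and -0.03 over all models. With libraries scaled by their totals alone, which moved the median of all models by -0.37, the split turned to 10 higher and 21 lower, and the member median was -0.32 against -0.40 over all models.

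**Figure D1:**
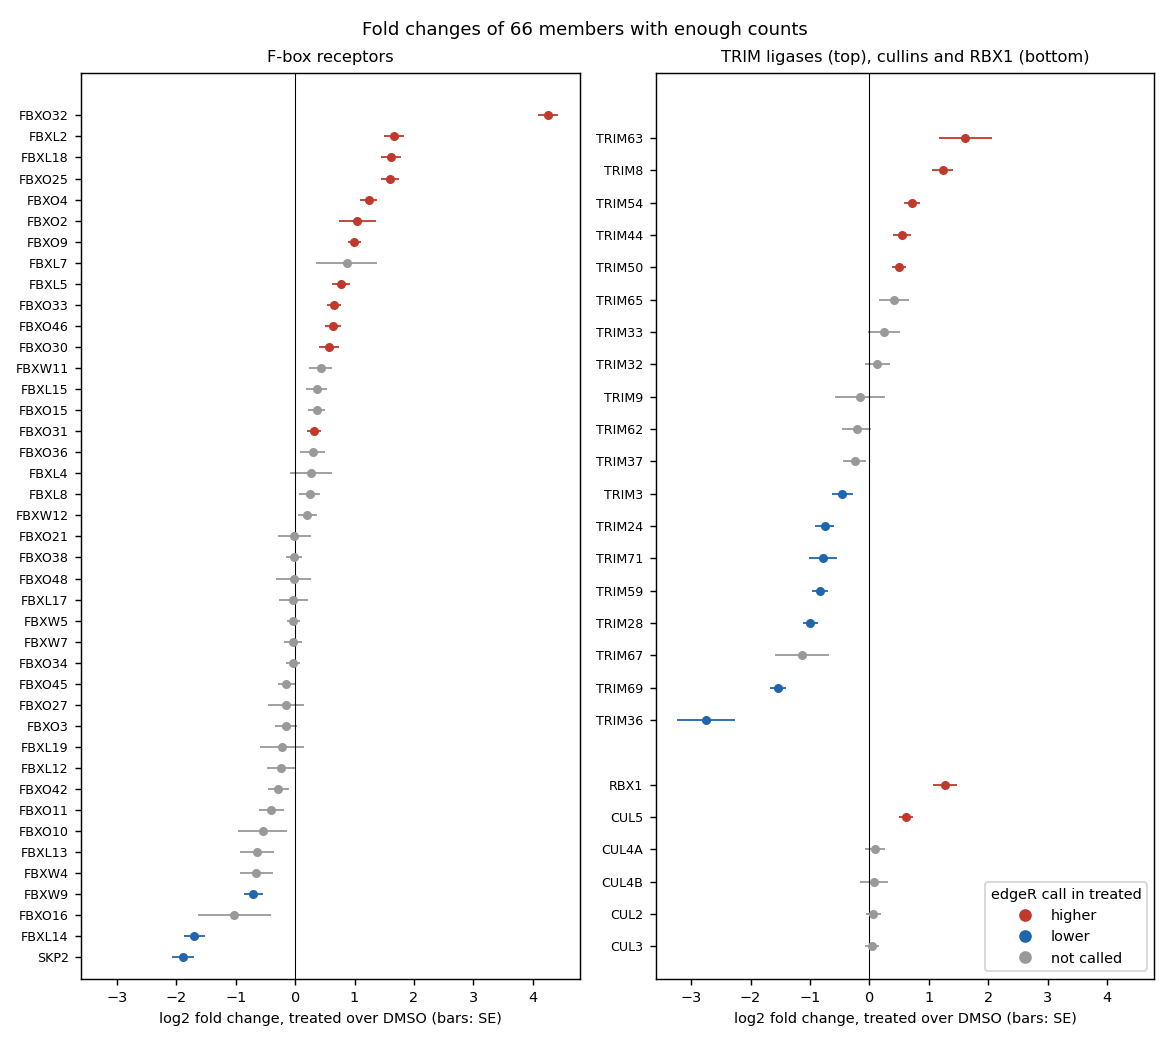
Log2 fold change of 66 tested members, treated over DMSO, with its SE as the bar; F-box genes are in the left panel, and TRIM genes above the core genes in the right panel. FBXO32 stands apart at 4.25, SKP2, FBXL14, TRIM69 and TRIM36 mark the low end, and most genes between them were not called. TRIM36 had at most 3 counts in any treated library and passed the count cutoff only through the DMSO libraries.

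Of the 6 core genes, RBX1 and CUL5 rose and the other 4 were not called. RBX1, the RING protein of the CUL1 to CUL4 ligases, had 206, 377 and 250 CPM in treated libraries, against 93.9, 117 and 134 CPM in DMSO libraries. All treated libraries lay above all DMSO libraries, with treated replicate 2 highest. Its log2 fold change was 1.27 (SE 0.20, adjusted p = 0.000126), or 2.42-fold. It lies on chromosome arm 3q, with a gene model of 718 bases.

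CUL5, the scaffold of the SOCS-box ligases, had 24.3, 29.4 and 25.2 CPM in treated libraries, against 17.3, 16.9 and 17.2 CPM in DMSO libraries. The DMSO libraries lay close together and below every treated library. The log2 fold change was 0.62 (SE 0.12, adjusted p = 0.000859), but it was 0.24 and not called (adjusted p = 0.131) with libraries scaled by their totals alone.

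The other cullins were not called. CUL3 had 73.2, 58.1 and 67.8 CPM in treated libraries, against 67.8, 63.9 and 61.5 CPM in DMSO libraries, and the groups overlapped. Its log2 fold change was 0.04 with a 95% interval of -0.21 to 0.30. CUL2, the scaffold of the VHL ligase, had 33.6, 46.3 and 36.7 CPM in treated libraries, against 37.7, 37.1 and 36.4 CPM in DMSO libraries. Its log2 fold change was 0.07 (95% interval -0.21 to 0.35). The overlap came with a wide spread in treated cells, where replicate 2 was highest. CUL4A and CUL4B, alternative scaffolds of the DDB1 ligases, had log2 fold changes of 0.09 (95% interval -0.28 to 0.46) and 0.07 (95% interval -0.43 to 0.57). Scaled by library totals alone, all 4 of these values were negative, between -0.32 and -0.28, and CUL2 was then called lower (adjusted p = 0.0386).

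Per kilobase of gene model, the core genes kept the same order in both groups. RBX1 averaged 386 CPM per kb in treated cells and 160 CPM per kb in DMSO cells. CUL3 followed at 16.5 CPM per kb in treated and 16.0 in DMSO cells, CUL2 at 10.5 in treated and 10.0 in DMSO cells, and CUL5 at 4.48 in treated and 2.91 in DMSO cells. CUL4B averaged 1.65 CPM per kb in treated and 1.57 in DMSO cells, and CUL4A 0.903 in treated and 0.843 in DMSO cells. Library ranges of neighbours in this order did not overlap within either group.

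Of 42 tested F-box genes, 12 rose, 3 fell and 27 were not called, with a median log2 fold change of 0.10. This is 35.7% called, against 52.3% of all models, with 28.6% higher against 25.5% and 7.14% lower against 26.8%. Under scaling by library totals alone 7 rose and 11 fell. Within the family, 9 of 22 FBXO genes rose and 0 fell, 3 of 13 FBXL genes rose and 1 fell, and 0 of 6 FBXW genes rose and 1 fell. In that order, the shares higher were 40.9%, 23.1% and 0.0%, against 25.5% of all models. The shares lower were 0.0%, 7.69% and 16.7%, against 26.8%. The shares called were 40.9% for FBXO, 30.8% for FBXL and 16.7% for FBXW genes, all below the 52.3% of all models. Beyond 2-fold there were 6 that rose (FBXO32, FBXL2, FBXL18, FBXO25, FBXO4 and FBXO2) and 2 that fell (SKP2 and FBXL14). Together they made up 19.0%, against 24.6% of all models.

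FBXO32, also called atrogin-1, the receptor best known from wasting muscle, had the largest change of the 67 tested members. It had 24.8, 23.8 and 22.3 CPM in treated libraries, against 1.41, 1.08 and 1.21 CPM in DMSO libraries. These were 1109, 614 and 864 counts in treated and 56, 36 and 38 counts in DMSO libraries. The groups lay far apart and each was tight. The log2 fold change was 4.25 (SE 0.17, adjusted p = 2.8e-09), a 19.1-fold difference, and it lay between 4.16 and 4.36 when any 1 library was left out. The gene model is on chromosome arm 5q, bases 1015895086 to 1015945582 on the minus strand of the AmexG_v6_DD assembly. A further FBXO32 model of 596 bases on an unplaced contig had 1, 0 and 6 counts in treated libraries and 0 in each DMSO library.

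The other tested F-box genes on the muscle list rose as well, which makes 3 of 3, against 25.5% of all models called higher. The list is short, was chosen with earlier results of these data known, and need not hold every F-box gene described in muscle. FBXO21, which is not on it, was not called (log2 fold change -0.012). FBXO25, the closest relative of FBXO32, had 39.9, 60.0 and 46.0 CPM in treated libraries, against 14.6, 16.4 and 16.8 CPM in DMSO libraries. Its log2 fold change was 1.61 (SE 0.15, adjusted p = 1.6e-06). FBXO30, known as MUSA1 in mouse muscle, had 15.9, 12.4 and 15.0 CPM in treated libraries, against 11.4, 10.3 and 7.36 CPM in DMSO libraries. The gap between its groups was narrow, and its call (log2 fold change 0.57, adjusted p = 0.0134) was lost without treated replicate 3 (0.55, adjusted p = 0.0501), without DMSO replicate 3 (0.40, adjusted p = 0.0763) and with scaling by library totals alone (0.21, adjusted p = 0.456). FBXO40, a muscle gene too, had 1, 0 and 2 counts in treated and 0 in each DMSO library and was not tested.

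The muscle marker genes were low in both groups. Of 13 found among 19 listed, 2 were tested, and the list summed to 6.13 to 8.28 CPM in treated and 5.26 to 6.25 CPM in DMSO libraries. CKM rose (log2 fold change 0.53, adjusted p = 0.0285), TNNC2 was not called, MYH3 had 0 counts, and MYOG, MYF6 and TNNT3 had at most 3 counts in any library.

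**Figure D2:**
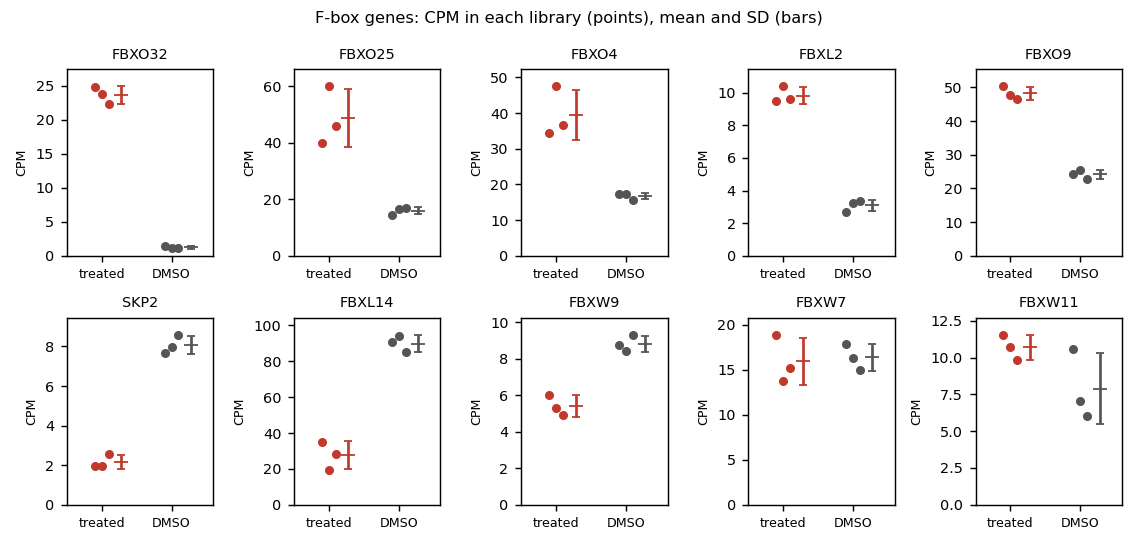
Normalised level (CPM) of 10 F-box genes in each library, treated libraries left and DMSO libraries right, with the mean and SD of 3 libraries beside the points. FBXO32 averages 23.6 CPM in treated and 1.23 CPM in DMSO libraries, SKP2 and FBXL14 are lower in every treated library, and FBXW7 and FBXW11 overlap between the groups.

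F-box genes of the cell cycle moved in both directions. Of 9 tested, 3 rose, 1 fell and 5 were not called, which is 44.4% called, against 52.3% of all models. Those higher made up 33.3%, against 25.5%, and those lower 11.1%, against 26.8%. SKP2, the receptor that removes the cell cycle inhibitor p27, had 1.97, 1.94 and 2.58 CPM in treated libraries, against 7.68, 7.95 and 8.57 CPM in DMSO libraries. All treated libraries were well below the DMSO libraries, with a log2 fold change of -1.89 (SE 0.18, adjusted p = 2.01e-06), or 3.71-fold lower. It lies on chromosome arm 6p.

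Those that rose were FBXL18, FBXO4 and FBXO31. The cell cycle list was also chosen with earlier results of these data known, and no cell cycle target of FBXL18 is named here. FBXO4, described as a receptor for cyclin D1 and for the telomere protein TRF1, had 34.3, 47.5 and 36.8 CPM in treated libraries, against 17.2, 17.2 and 15.8 CPM in DMSO libraries (log2 fold change 1.24, SE 0.14, adjusted p = 7.53e-06). FBXL18 had 18.2, 29.2 and 21.4 CPM in treated libraries, against 7.35, 7.47 and 7.45 CPM in DMSO libraries (log2 fold change 1.62, SE 0.17, adjusted p = 4.3e-06). Every treated library was above every DMSO library for both, and treated replicate 2 was highest. A further FBXL18 model on the other strand of arm 2q had a log2 fold change of 0.37 and was not called (adjusted p = 0.0755). FBXO31, a receptor for cyclin D1 after DNA damage, had 21.1, 24.3 and 23.4 CPM in treated libraries, against 17.3, 19.6 and 18.2 CPM in DMSO libraries. That small difference (log2 fold change 0.32, adjusted p = 0.0421) was lost in 8 of 14 other settings, among them each of the fits without a treated replicate 2 or 3 or without any 1 DMSO library, where it lay between 0.27 and 0.36.

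The receptors of cyclin E and of the beta-catenin pathway were not called. FBXW7, which binds cyclin E, MYC and NOTCH, had 18.8, 13.8 and 15.2 CPM in treated libraries, against 17.9, 16.3 and 14.9 CPM in DMSO libraries. The groups overlapped, and the 95% interval of the log2 fold change was -0.35 to 0.28. FBXW11, also called beta-TrCP2, had 11.5, 10.7 and 9.85 CPM in treated libraries, against 10.6, 7.05 and 6.03 CPM in DMSO libraries. DMSO replicate 1 overlapped the treated range, and the log2 fold change was 0.43 (adjusted p = 0.0767), against 0.70 (adjusted p = 0.0067) without that library. FBXL12, described for p21 and p57, had a log2 fold change of -0.23 (95% interval -0.77 to 0.30), FBXL8, described for cyclin D3, 0.25 (95% interval -0.14 to 0.63), and FBXL7, described for Aurora A, 0.87 (95% interval -0.24 to 1.98). FBXL7 ranged from 0.155 CPM in treated replicate 2 to 1.12 CPM in treated replicate 1, and without replicate 2 its log2 fold change was 1.28 (adjusted p = 0.0119). FBXO43, an inhibitor of the anaphase-promoting complex in eggs, had 0 counts.

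Other F-box genes that rose included FBXL2 and FBXO9. FBXL2, which is anchored in membranes through a lipid, had 9.47, 10.4 and 9.59 CPM in treated libraries, against 2.69, 3.23 and 3.36 CPM in DMSO libraries. FBXO9, a receptor for the mTOR regulators TEL2 and TTI1, had 50.3, 47.8 and 46.6 CPM in treated libraries, against 24.3, 25.4 and 22.8 CPM in DMSO libraries. Both groups were tight and apart for both genes, with log2 fold changes of 1.67 (SE 0.17, adjusted p = 2.58e-06) for FBXL2 and 1.00 (SE 0.11, adjusted p = 7.46e-06) for FBXO9. FBXL5, the iron-sensing receptor for IRP2, averaged 17.8 ± 2.73 CPM in treated and 10.4 ± 0.174 CPM in DMSO libraries (SD, n = 3 each; log2 fold change 0.77, edgeR adjusted p = 0.000526). The remaining genes that rose were FBXO33 (log2 fold change 0.65), FBXO46 (0.64) and FBXO2 (1.05), which binds N-glycans and was low, at 1.14, 1.24 and 1.13 CPM in treated and 0.554, 0.687 and 0.444 CPM in DMSO libraries. The call of FBXO2 was lost without DMSO replicate 3 and with scaling by library totals alone (adjusted p up to 0.0742). Scaling by library totals alone also lost the calls of FBXO33 (adjusted p = 0.116) and FBXO46 (adjusted p = 0.148).

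FBXL14 and FBXW9 fell together with SKP2. FBXL14, whose Xenopus form targets the Snail-family factor Slug, had 35.1, 19.3 and 28.6 CPM in treated libraries, against 90.5, 94.2 and 85.0 CPM in DMSO libraries. The treated libraries spread more widely but all lay far below, with a log2 fold change of -1.70 (SE 0.17, adjusted p = 3.25e-06), or 3.24-fold lower. FBXW9 had 6.04, 5.31 and 4.90 CPM in treated libraries, against 8.76, 8.43 and 9.29 CPM in DMSO libraries (log2 fold change -0.70, SE 0.16, adjusted p = 0.00207).

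FBXO25 and FBXL14, which moved in opposite directions, changed places between the groups in their levels per kilobase. This restates their fold changes and does not hold for every such pair. FBXO25 averaged 19.1 CPM per kb in treated cells (range 15.7 to 23.5) and 6.26 in DMSO cells (5.73 to 6.61). FBXL14 averaged 5.93 CPM per kb in treated cells (4.14 to 7.52) and 19.3 in DMSO cells (18.2 to 20.2). The ranges of FBXO25 and FBXL14 did not overlap within either group. FBXO9 and FBXL18, at 16.4 CPM per kb each in treated cells, lay within the range of FBXO25 there. In DMSO cells FBXO9 averaged 8.24 CPM per kb and FBXL18 5.30.

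Of the 27 F-box genes that were not called, some were closely matched between the groups, FBXW5 among them, and others were not. FBXW5 had 25.8, 24.3 and 25.8 CPM in treated libraries, against 26.0, 25.3 and 26.2 CPM in DMSO libraries, with a 95% interval of the log2 fold change of -0.27 to 0.21. FBXO15, a marker of mouse embryonic stem cells, had 10.9, 10.4 and 11.8 CPM in treated libraries, against 8.28, 9.59 and 7.96 CPM in DMSO libraries. Its groups did not overlap, and its adjusted p of 0.0505 was just outside the threshold. The 95% interval of its log2 fold change was 0.05 to 0.68, and it was called with DESeq2, limma-voom and some other settings. The 7 F-box genes too low to test were FBXL16, FBXL20, FBXO39, FBXO40, FBXO41, FBXO43 and FBXO47, with at most 8 counts in any library.

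Of 19 tested TRIM genes, 5 rose, 7 fell and 7 were not called. This is 63.2% called against 52.3% of all models, and the groups did not overlap for 14 (73.7%) against 60.2% of all models. Genes that rose made up 26.3%, against 25.5%, and genes that fell 36.8%, against 26.8%. TRIM36, among the 7 that fell, passed the count cutoff only through its DMSO libraries. TRIM63, among the 5 that rose, was kept through its treated libraries. The median log2 fold change was -0.21. Scaled by library totals alone, 2 rose and 9 fell.

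TRIM69 was abundant in both groups and fell in treated cells. In human cells TRIM69 is described at centrosomes and microtubules and as an interferon-induced inhibitor of a rhabdovirus. The symbol of this axolotl model, which lies beside VKORC1, is as deposited, and whether it matches human TRIM69 was not tested. Its main model had 825, 740 and 766 CPM in treated libraries, against 2330, 2348 and 2123 CPM in DMSO libraries. Each group was tight, and the log2 fold change was -1.54 (SE 0.13, adjusted p = 7.03e-07), or 2.92-fold lower. Per kilobase it averaged 286 CPM (range 272 to 304) in treated cells and 834 CPM (range 782 to 864) in DMSO cells. RBX1, the only other member above 100 CPM per kb in either group, ranged from 287 to 525 CPM per kb in treated libraries, which overlapped TRIM69, and from 131 to 186 in DMSO libraries, which did not. Of the 2717 bases of this TRIM69 model, 1215 are shared with a model on the opposite strand. How reads there were counted is not given, so the TRIM69 level per kilobase may be too low, also beside RBX1. TRIM50, the next TRIM gene in both groups, averaged 17.9 CPM per kb in treated and 12.7 in DMSO cells. The model lies on chromosome arm 3p, bases 734575093 to 734584648 on the plus strand.

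The table names 4 further models TRIM69. A model on arm 3p, bases 711901667 to 712025934, had 4.48, 3.80 and 3.43 CPM in treated libraries, against 5.86, 6.81 and 4.76 CPM in DMSO libraries (TRIM69 log2 fold change -0.57, adjusted p = 0.0222). A model on arm 8p had 1.45, 2.60 and 1.57 CPM in treated libraries, against 7.40, 5.95 and 4.89 CPM in DMSO libraries (-1.73, adjusted p = 6.24e-05). A model of 369 bases on arm 10p had 0.806, 0.504 and 0.645 CPM in treated libraries, against 2.69, 2.51 and 2.25 CPM in DMSO libraries (-1.90, adjusted p = 4.73e-05). All 3 fell, but reads of near-identical copies may be split or shared between them, so they are not independent measurements. The last model lies wholly inside the abundant one on the opposite strand, over 1215 bases, and had 0 counts in every library. Its 0 counts and the high counts of its partner cannot be told apart by strand, since the method does not mark it.

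**Figure D3:**
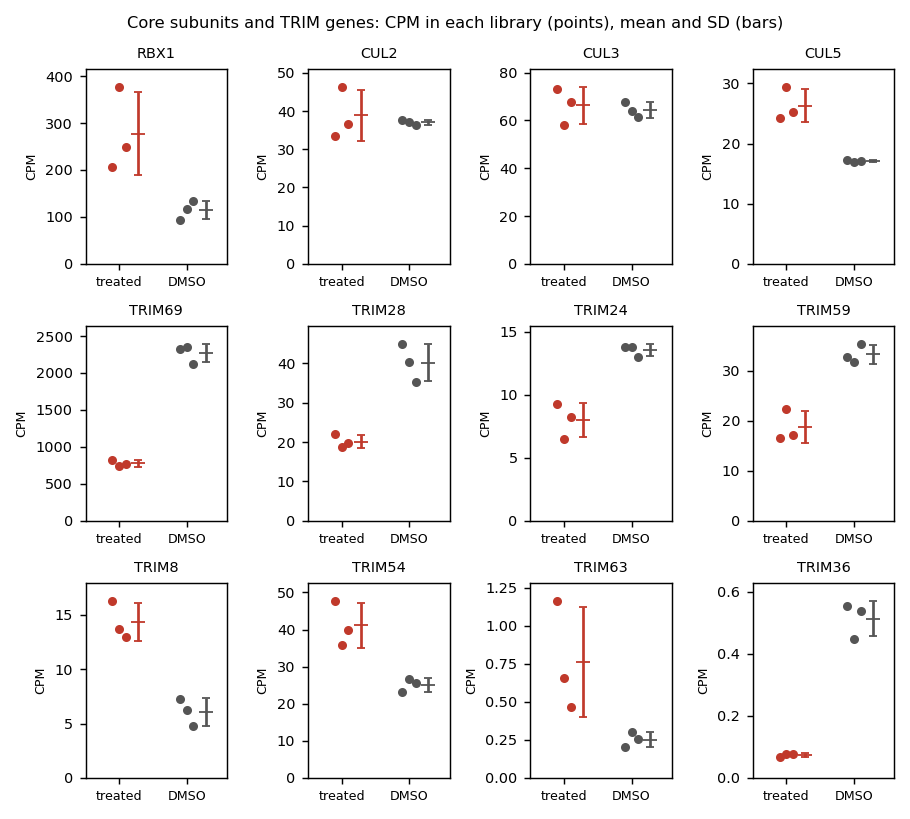
Normalised level (CPM) of 4 core genes and 8 TRIM genes in each library, treated libraries left and DMSO libraries right, with the mean and SD of 3 libraries beside the points; scales differ between panels. RBX1, TRIM8 and TRIM54 are higher in every treated library, TRIM69, TRIM28, TRIM24, TRIM59 and TRIM36 are lower, and CUL2 and CUL3 overlap.

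The TRIM regulators of chromatin were lower where they were called. TRIM28, also called KAP1, the corepressor of KRAB zinc finger proteins, had 22.0, 18.7 and 19.7 CPM in treated libraries, against 44.8, 40.4 and 35.4 CPM in DMSO libraries. TRIM24 had 9.24, 6.52 and 8.20 CPM in treated libraries, against 13.8, 13.8 and 13.0 CPM in DMSO libraries. Neither gene overlapped between the groups, and the log2 fold changes were -0.996 (SE 0.13, adjusted p = 2.46e-05) for TRIM28 and -0.75 (SE 0.16, adjusted p = 0.00114) for TRIM24. A further TRIM24 model on arm 12q was lower too (log2 fold change -0.62, adjusted p = 0.0153). TRIM33, the related SMAD4 ligase, had 1.12, 1.55 and 1.39 CPM in treated libraries, against 1.23, 1.08 and 1.08 CPM in DMSO libraries. It was not called (log2 fold change 0.25, 95% interval -0.32 to 0.81), and whether it differs from TRIM28 and TRIM24 was not tested. TRIM66, the member of this branch described in testis, had 0, 0 and 4 counts in treated and 0 in each DMSO library.

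TRIM59, which sits in membranes, fell to 16.6, 22.4 and 17.2 CPM in treated libraries, against 32.8, 31.7 and 35.4 CPM in DMSO libraries (log2 fold change -0.83, SE 0.14, adjusted p = 0.00019). TRIM71, also called LIN41, a stem cell regulator and target of let-7, had 1.41, 1.32 and 1.31 CPM in treated libraries, against 2.82, 1.97 and 2.16 CPM in DMSO libraries. DMSO replicate 1 was highest, and the call of TRIM71 (log2 fold change -0.78, adjusted p = 0.0132) was lost without it (-0.62, adjusted p = 0.0707). TRIM3, another TRIM with NHL repeats, had 4.43, 3.53 and 3.40 CPM in treated libraries, against 5.21, 5.35 and 5.11 CPM in DMSO libraries. Its adjusted p of 0.0438 was lost in 10 of 14 other settings, where it reached 0.146, and a further TRIM3 model had a log2 fold change of 0.17 and was not called (adjusted p = 0.758). TRIM32, mutated in a limb-girdle muscular dystrophy, overlapped between the groups (log2 fold change 0.13, adjusted p = 0.628).

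Among the TRIM genes that bind microtubules, TRIM36 had the most negative log2 fold change of the 67 tested members. In Xenopus eggs Trim36 is needed for the dorsal axis. It had 3, 2 and 3 counts in treated libraries, against 22, 15 and 17 counts in DMSO libraries, and it passed the count cutoff only through the DMSO libraries. The summed counts, 8 in treated and 54 in DMSO libraries, gave a ratio of 0.142 with an exact 95% interval of 0.0584 to 0.300 for counting error only. The fitted log2 fold change was -2.75 (SE 0.49). TRIM36 is included in the counts of called genes. Its adjusted p is not taken as support for its fall, since the DMSO libraries alone brought it past the cutoff. TRIM67 had 0.761, 0.194 and 0.309 CPM in treated libraries, against 0.780, 0.777 and 1.40 CPM in DMSO libraries, and its adjusted p of 0.0504 was just outside the threshold. TRIM9 overlapped between the groups, at 0.349 to 0.464 CPM in treated and 0.277 to 0.571 CPM in DMSO libraries.

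Both tested TRIM genes listed for muscle rose (2 of 2, against 25.5% of all models called higher). This list is short too and was chosen with earlier results of these data known. TRIM32, named above for a muscular dystrophy, is not on it and was not called (log2 fold change 0.13). TRIM54, also called MuRF3, which binds microtubules and the sarcomere, had 47.7, 35.8 and 39.9 CPM in treated libraries, against 23.0, 26.5 and 25.5 CPM in DMSO libraries. Its groups were apart, with a log2 fold change of 0.72 (SE 0.13, adjusted p = 0.000443), and the call was lost with scaling by library totals alone (0.36, adjusted p = 0.0978). TRIM63, also called MuRF1, known beside FBXO32 from wasting muscle, was low, at 1.16, 0.659 and 0.464 CPM in treated libraries, against 0.201, 0.299 and 0.254 CPM in DMSO libraries. These were 52, 17 and 18 counts in treated and 8, 10 and 8 counts in DMSO libraries, so the low-count filter kept TRIM63 through its treated libraries. TRIM63 is included in the counts of called genes, but its adjusted p is not taken as support for its rise. Treated replicate 1 was highest, and the call (log2 fold change 1.62, SE 0.45, adjusted p = 0.00809) was lost without it (1.14, adjusted p = 0.0617). TRIM55, also called MuRF2, had 12, 1 and 11 counts in treated and 2, 1 and 8 counts in DMSO libraries. TRIM72, which repairs muscle membranes, had 5, 2 and 19 counts in treated and 0, 8 and 0 counts in DMSO libraries, and neither was tested. The muscle marker values given with FBXO32 apply here too.

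The other TRIM genes that rose were TRIM8, TRIM44 and TRIM50. TRIM8, a ligase of cytokine and p53 signalling, had 16.3, 13.7 and 13.0 CPM in treated libraries, against 7.25, 6.28 and 4.73 CPM in DMSO libraries (log2 fold change 1.23, SE 0.18, adjusted p = 6.32e-05). TRIM44, which lacks a RING, had 14.9, 14.4 and 11.8 CPM in treated libraries, against 9.94, 10.1 and 8.15 CPM in DMSO libraries (log2 fold change 0.54, adjusted p = 0.00862). That call was lost without DMSO replicate 3 (adjusted p = 0.054) and with scaling by library totals alone. TRIM50, described in the acid-secreting cells of the stomach, had 52.7, 43.8 and 51.0 CPM in treated libraries, against 33.2, 36.3 and 35.1 CPM in DMSO libraries (log2 fold change 0.50, adjusted p = 0.00265). Its groups did not overlap, and its call was lost with scaling by library totals alone (adjusted p = 0.461). TRIM65, a ligase of RNA sensing, was not called (log2 fold change 0.41, adjusted p = 0.171), and TRIM56, of the same process, had at most 4 counts in any library.

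Members varied between replicates in ways the groups do not give. Of the 67 tested members, treated replicate 1 was the lowest treated library for 26 and the highest for 30. Treated replicate 2 was the lowest for 27 and the highest for 24, and treated replicate 3 for 14 and 13. DMSO replicate 3 was the lowest DMSO library for 33, and DMSO replicate 1 was the highest for 29. Over all 17424 gene models, which share the libraries and their depth, the deviation of treated replicate 2 from the other treated libraries had a Spearman rho of -0.29 with gene model length, and over the 67 members -0.26. The deviation of DMSO replicate 1 from the other DMSO libraries had a rho with length of 0.35 over all models and 0.16 over the members. The log2 fold change itself had a Spearman rho with length of -0.18 over all models and -0.25 over the members. The part of length in the fold changes was not tested. Without treated replicate 2, 23 members were called higher and 10 lower.

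Overlapping gene models bear on some members. Of the 86 models that stood for a member, 24 share bases with another model, in each case on the opposite strand. How such reads were counted is not given in the sources used here. FBXO11, a receptor for BCL6, shares 1354 bases with MSH6, a mismatch repair gene. MSH6 had 235, 107 and 242 counts in treated and 1127, 767 and 600 counts in DMSO libraries. FBXO11 had 3.54, 3.37 and 5.23 CPM in treated libraries, against 6.12, 4.45 and 5.52 CPM in DMSO libraries, and was not called (log2 fold change -0.40, adjusted p = 0.123). CUL5 shares 98 bases with a model of 18 to 35 counts in treated and 21 to 35 counts in DMSO libraries.

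The members are spread over the genome, and 85 of the 86 representative models are on 26 chromosome arms, with at most 8 on any arm (4p), and FBXO2 is on an unplaced contig.

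Other genes of the ubiquitin ligase pathway were counted from lists that were chosen with earlier results of these data known. Cullins work only with NEDD8 attached, which the COP9 signalosome removes and CAND1 follows by exchanging receptors. Of 20 tested genes of this cycle, 10 rose and 1 fell, with a median log2 fold change of 0.28. This is 55.0% called, against 52.3% of all models, with 50.0% higher against 25.5% and 5.0% lower against 26.8%. With scaling by library totals alone, 2 rose and 5 fell. COPS5, the catalytic subunit of the signalosome, had 208, 253 and 207 CPM in treated libraries, against 129, 130 and 136 CPM in DMSO libraries (log2 fold change 0.76, SE 0.12, adjusted p = 0.000143). COPS9, its smallest subunit, had 162, 242 and 185 CPM in treated libraries, against 57.4, 70.2 and 79.6 CPM in DMSO libraries (log2 fold change 1.51). NAE1, of the enzyme that activates NEDD8, rose too (log2 fold change 0.57). CAND1 fell (log2 fold change -0.46, adjusted p = 0.0283), at 53.3, 49.8 and 53.8 CPM in treated libraries, against 95.1, 59.9 and 60.5 CPM in DMSO libraries, where replicate 1 stood above the others.

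Of 50 tested adaptors and receptors of the other cullins, 5 rose and 20 fell, with a median log2 fold change of -0.23. This is 50.0% called, against 52.3% of all models, with 10.0% higher against 25.5% and 40.0% lower against 26.8%. Whether this list differs from other genes was not tested. DTL, the CUL4 receptor that degrades CDT1 during DNA replication, had 2.26, 1.44 and 1.21 CPM in treated libraries, against 10.7, 10.6 and 9.20 CPM in DMSO libraries (log2 fold change -2.62, SE 0.22, adjusted p = 6.25e-07). DDB1, the adaptor of all CUL4 ligases, fell with a log2 fold change of -0.77 (adjusted p = 0.0013), and DCAF1 with -1.54 (adjusted p = 1.7e-05). ELOC, the elongin that CUL2 and CUL5 receptors share, had 459, 800 and 544 CPM in treated libraries, against 245, 285 and 316 CPM in DMSO libraries (log2 fold change 1.09, adjusted p = 0.000256). CRBN, the CUL4 receptor bound by thalidomide, rose too (log2 fold change 0.71).

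F-box and TRIM genes that carry other symbols moved both ways, with 3 of 11 tested higher and 4 lower (63.6% called, against 52.3% of all models). Those higher made up 27.3%, against 25.5%, and those lower 36.4%, against 26.8%. CCNF, also called cyclin F or FBXO1, had 3.33, 1.86 and 2.19 CPM in treated libraries, against 13.3, 11.1 and 11.2 CPM in DMSO libraries (log2 fold change -2.25, SE 0.21, adjusted p = 1.45e-06). KDM2A and KDM2B, F-box proteins that bind CpG islands, fell as well (log2 fold changes -0.98 and -0.99). RNF7, also called RBX2, the RING partner of CUL5, was not called (log2 fold change -0.16). Of the anaphase-promoting complex, the other large cell cycle ligase, 9 of 14 tested genes fell and 1 rose, with a median log2 fold change of -0.48. This is 71.4% called, against 52.3% of all models, with 64.3% lower against 26.8% and 7.14% higher against 25.5%. CDC20, its mitotic activator, had 37.6, 32.3 and 34.2 CPM in treated libraries, against 113, 122 and 119 CPM in DMSO libraries (log2 fold change -1.77, adjusted p = 4.6e-08). Over the 4 lists, 19 of 95 tested genes rose and 34 fell, which is 55.8% called, against 52.3% of all models. Those higher made up 20.0%, against 25.5%, and those lower 35.8%, against 26.8%.

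**Figure D4:**
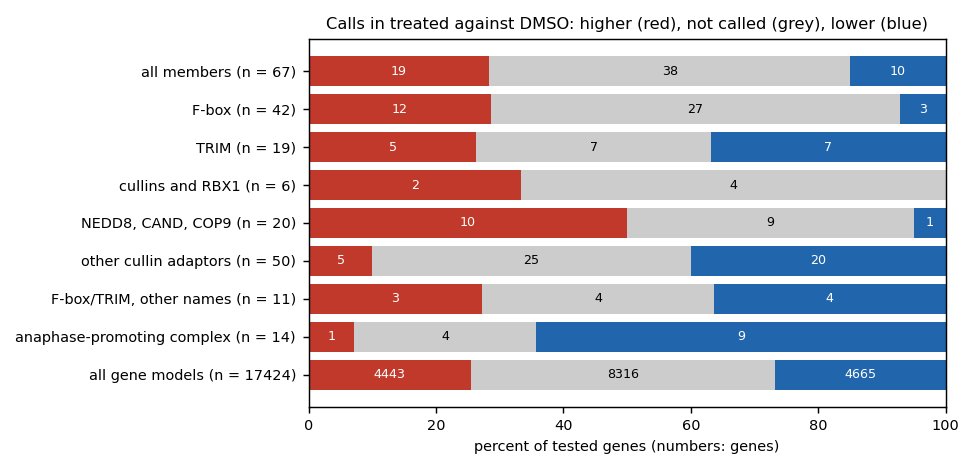
Share of tested genes called higher (red), not called (grey) or called lower (blue) in treated against DMSO cells, with the number of genes printed in each bar, for the members, their families, the 4 pathway lists and all gene models tested. F-box genes have 12 higher and 3 lower, TRIM genes 5 and 7, the NEDD8 cycle 10 and 1, and the anaphase-promoting complex 1 and 9.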

How the data were processed

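RNA of 6 AL1 samples was read from modified Smart-seq2 libraries of polyadenylated RNA (1000 ng input, 100 bp paired-end reads, strand not marked), per the labels' protocols. What the authors deposited is a table of raw counts, whole numbers for each gene model and library. The submitters' processing notes list bcl2fastq 2.20.0, STAR 2.7.7a and featureCounts 2.0.1, with no role or order. Gene models, symbols and coordinates are those of the table, whose name gives the AmexG_v6_DD assembly. Its 92 spike-in rows held 0 counts and were left out. Members were matched by symbol as given in the table, and some genes that the symbols or the rule for named genes would cover are not reported here. The members and gene lists were chosen with earlier results of these data known, so counts over them have no test of their own.

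These counts went unchanged into edgeR 4.0.16 (R 4.3.3). There, filterByExpr kept 17424 models, libraries were scaled by trimmed mean of M-values (TMM), and treated was compared with DMSO by the robust quasi-likelihood F-test, two-sided, with Benjamini-Hochberg adjustment over all models tested. A gene was called at an adjusted p below 0.05. SE values derive from the F statistic, and 95% intervals use the t distribution with the fit's degrees of freedom. CPM values are TMM-scaled. The script was tested on simulated data. The text names the core genes, the cell cycle, muscle and chromatin role lists, up to 6 called genes per family and direction with a mean CPM of at least 1 and groups that do not overlap, and the 2 most abundant genes per kilobase of each family. FBXL5, FBXO2, FBXO11, FBXO15, FBXO21, FBXO33, FBXO46, FBXW5, TRIM9, TRIM32, TRIM36, TRIM56, TRIM65, TRIM67 and the pathway examples were named after their values were seen. Groups came from the labels, which give no replicate numbers, so replicate numbers only name libraries. For pairs of libraries of 1 group, chi-square per degree of freedom was 5.63 to 68.8, so no library was counted as a repeat of another. Alternatives were other scalings, other filters, DESeq2 1.42.0, limma-voom (limma 3.58.1), summed models of a symbol and each library left out.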

Additional observations from a re-analysis of the deposited data

How the results depend on the processing

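Each result was recomputed in 14 other settings. Of the 29 members called, 17 kept their call and direction in all 14, and 12 lost it in at least 1. TRIM36, which passed the count cutoff only through its DMSO libraries, is among the 17. The largest differences came with scaling by library totals alone, which moved the median of all models by -0.37: 10 members were then called higher and 21 lower, F-box genes 7 higher and 11 lower, TRIM genes 2 higher, core genes 1 higher and 1 lower, and 5 genes of the pathway lists higher, with a member median of -0.32. Among the genes named by rule, the log2 fold change turned negative in that setting for CUL2 (-0.32), CUL3 (-0.32), CUL4A (-0.28), CUL4B (-0.30), FBXL8 (-0.14), FBXO31 (-0.057) and TRIM33 (-0.13). Other members with a positive value reached a negative one in at least 1 setting, TRIM32 among them (-0.25). Upper-quartile factors gave FBXW7 0.052, and limma-voom called 5 F-box genes lower. The further gene models, added after the data were seen, gave 0.17 for TRIM3 and -0.032 for FBXL8. With 1 library left out at a time, the number of F-box genes called lower ranged from 3 to 5, and log2 fold changes ranged from -0.067 to 0.17 for CUL2, -0.025 to 0.14 for CUL3, -0.093 to 0.39 for CUL4B and -0.17 to 0.063 for FBXW7. The cause of these changes was not tested beyond the scaling itself. Of 24 called genes among the 39 named by rule, 14 kept their call in every setting and in their further models. No paired analysis was possible because the labels give no replicate numbers. Depth limits 19 members that had too few counts to test.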

Other observations

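The table describes many models whose symbol is only a LOC number as TRIM39-like, and these were counted after the table was seen. Of 106 such models 83 had counts and 42 were tested, of which 17 were higher in treated cells, 10 were lower and 15 were not called. This is 64.3% called, against 52.3% of all models, with 40.5% higher against 25.5% and 23.8% lower against 26.8%. Their log2 fold changes ran from -1.73 to 2.51, with a median of 0.54. Reads of such similar copies may be shared between models, so these are not independent measurements. TRIM39 itself had 1 count in 1 treated library and 0 in the others.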
